A study of Homo sapiens with 16 samples.

Results

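Focal contacts are single spots in a Hi-C map at which 2 distant stretches of the genome are joined more often than the pairs of stretches around them. In Hi-C, DNA in fixed nuclei is cut, neighbouring ends are ligated, and sequencing reads which ends were joined. The pairs described here were found in K562 cells, an established human chronic myelogenous leukaemia line, and the 2 stretches of a pair are called its anchors. A pair of 20 kb bins was a member when it was 100 kb to 2 Mb apart, was the maximum of its 5 x 5 neighbourhood, held a summed signal of 30 or more, and was 2 or more times the mean of the ring of pairs 3 to 5 bins away. In all, 59088 of 176673 local maxima on chromosomes 1 to 22 met the rule, or 33.4%. They came from 12002474 possible pairs of present bins in this distance range.

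In mammalian nuclei, many focal contacts are loops whose anchors are bound by CTCF and by cohesin, the ring-shaped complex that draws DNA into a growing loop until CTCF stops it. Other focal contacts join promoters to enhancers, or join stretches that share the same repressed state. Loops often close off a domain, so their anchors are often found at domain boundaries. In a contact map such a loop is a spot at the corner of a domain, often with stripes of contacts along the lines of its anchors. No binding data were used here, so the anchors are given by position only. Coordinates are of build hg19, with no gene names.

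Every library was made from K562 cells fixed with formaldehyde, with ligation inside the nuclei. The groups differed in the time of digestion with HindIII, a restriction enzyme with a 6-base recognition site, which was 0.25, 1, 3 or 12 h. There were 2 replicates per time, all of them sequenced in 2 runs. The stated purpose of the short times was to catch the boundaries open to the enzyme first. The labels do not say whether replicates came from separate cultures, so their spread may be technical.

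The second run, at 20 kb, held 62777251 contacts in the smallest library, 0.25 h replicate 2, and 176412221 in the largest, 12 h replicate 1. At both replicate numbers depth rose with digestion time, so the summed map leans on the 12 h libraries. Present in all 8 libraries were 129998 of 144061 autosomal bins. As a check of the cell line, the highest pair of 1 Mb bins between each pair of autosomes was taken from the first run. The pair at 133000001 on chromosome 9 and 23000001 on chromosome 22, near the known fusion of these chromosomes, had rank 2 among 231 such maxima. Rank 1 was the pair at 19000001 on chromosome 14 and 16000001 on chromosome 22.

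Most members rested on few read pairs. The deposited values are balanced, that is, scaled to give every bin an equal total, and the whole contacts behind them could be recovered. The median member had 10 contacts in the 8 libraries together, a summed signal of 52.0 and a distance of 840 kb. The signal per contact was 5.17 at the median member and 2.15 at the median local maximum below the factor of 2. With 1 to 9 contacts there were 27620 members (46.7%), and with 10 to 29 contacts there were 17055 (28.9%). With 30 to 99 contacts there were 7983 (13.5%), with 100 to under 300 there were 4645 (7.9%), and with 300 or more there were 1785 (3.0%). These classes were set after the contacts were seen.

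**Figure D1:**
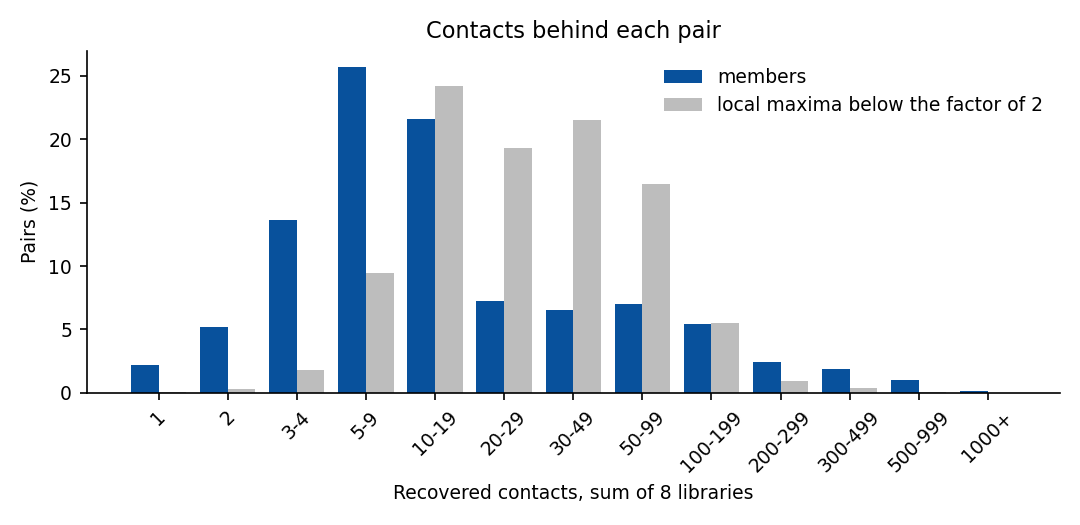
Share of pairs (%, y axis) by number of recovered contacts in the 8 second-run libraries together (x axis, classes of unequal width). Blue bars are the 59088 members and grey bars the 117585 local maxima below the factor of 2; members peak at 5 to 9 contacts (25.7%) and the others at 10 to 19 (24.2%).

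The strength of a pair is its signal over the distance mean, divided by the mean of the same quantity in its ring. The rule selected the members on this value, so their strengths are a description. The median member had a strength of 2.57, with quartiles at 2.22 and 3.29. The highest was 95.3. The 3 members nearest above the factor of 2 and the 3 local maxima nearest below it all had a strength of 2.0 at this rounding. The 3 inside had 5, 9 and 2 contacts, and the 3 outside had 24, 9 and 19.

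A library that took no part in the choice gave a measure that the rule did not use. For each library the members were chosen again from the other 7, and their summed centre signal was divided by the signal that their rings predict. The strength over all pairs chosen was 2.04 and 2.07 in the left-out libraries of 0.25 h, 2.02 and 2.01 in those of 1 h, 2.00 and 1.99 in those of 3 h, and 1.78 in both of 12 h. Over the members as selected on all 8 libraries the same ratio was 3.12 and 3.30 at 0.25 h and 2.55 and 2.52 at 12 h. The values with the library in the choice were thus higher in each library than those without it.

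The gap lay in the members with few contacts. For pairs with 1 to 9 contacts the left-out libraries gave between 1.16 in 12 h replicate 1 and 1.23 in 0.25 h replicate 2. The same class gave 2.38 to 3.95 when the library had taken part in the choice. For pairs with 100 or more contacts the left-out values were 3.41 and 3.35 at 0.25 h, 3.38 and 3.29 at 1 h, 3.36 and 3.27 at 3 h, against 2.94 and 2.89 at 12 h. With the library in the choice they were 3.47 and 3.44, 3.43 and 3.37, 3.41 and 3.33, and 3.01 and 2.95. The name "loop-like" is therefore borne out as focal enrichment in a left-out library mainly for the members with more contacts, and below members are given by their contacts.

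The first run, at 50 kb, was also outside the rule, although both runs read the same libraries and can hold the same ligation products. The centre was above its ring there in 53.3% of the members with 1 to 9 contacts and in 53.1% of the local maxima below the factor of 2. Their summed first-run strength at 0.25 h was 1.118 and 1.035. The share of members above the ring was 70.7% with 10 to 29 contacts, 93.7% with 30 to 99, 98.5% with 100 to under 300 and 99.6% with 300 or more. It was 71.8% in the local maxima below the factor of 2 with 100 or more contacts. In the second run, all 8 libraries were above the ring in 6250 of the 6430 members with 100 or more contacts (97.2%). This held in 41.9% of the local maxima below the factor of 2 with that many contacts, and in 3.7% of the 44675 members with under 30. Those last shares use the values on which the members were selected. In 0.25 h replicate 2, 46.5% of all members had 0 contacts.

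Summed focal strength was lower at 12 h than at the 3 shorter times. Over all members, in the values on which they were chosen, the mean strength was 3.21 ± 0.123 at 0.25 h (SD, n = 2), 3.02 ± 0.0161 at 1 h, 2.96 ± 0.0339 at 3 h and 2.54 ± 0.0213 at 12 h. The 12 h mean was 20.9% below that at 0.25 h and 14.3% below that at 3 h. The higher 12 h library, at 2.55, lay below the lowest of the other 6, at 2.94, so the groups did not overlap. In pairs chosen without the library the 12 h mean was 13.5% below that at 0.25 h. These sets differed in size, from 61456 pairs to 75417, and were largest for the 12 h libraries, in which more pairs had few contacts. A strength of 1 means no enrichment, so a percent fall of the strength itself grows with its level. Taken on the excess over 1, the fall within classes in these sets was alike, at 21.9% with 1 to 9 contacts, 19.3% with 10 to 29, 18.4% with 30 to 99 and 19.5% with 100 or more. Over all members, with a centre of 3 x 3 pairs, the 12 h mean was 5.61% below that at 0.25 h. The median over members went the other way, with 1.94 ± 0.604 at 0.25 h (SD, n = 2) and 2.22 ± 0.0348 at 12 h. No p is given for these values over members.

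The members with 100 or more contacts showed the step more narrowly placed. Their strength was 3.46 ± 0.0235 (SD, n = 2) at 0.25 h, 3.40 ± 0.0479 at 1 h, 3.37 ± 0.0567 at 3 h, against 2.98 ± 0.0384 at 12 h. From 0.25 to 3 h the mean fell by 2.49%, and from 3 to 12 h by 11.6%. In pairs chosen without the library, the corresponding falls were 1.88% and 12.1%. There the 6 libraries of the shorter times overlapped, and both 12 h libraries lay below them. In the values used for the choice both 0.25 h libraries lay just above those of 1 and 3 h.

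In the first run the 12 h mean was also the lowest, with a smaller range. Over all members its strength was 1.55 ± 0.00679 at 0.25 h (SD, n = 2), 1.54 ± 0.00375 at 1 h, 1.54 ± 0.00735 at 3 h and 1.49 ± 0.0154 at 12 h. For members with 100 or more contacts it was 2.14 ± 0.0012, 2.112 ± 0.0127, 2.112 ± 0.0115 and 2.00 ± 0.0274. The 12 h libraries were below the other 6 in both sets. The shorter times had no such order in every class: with 30 to 99 contacts the mean was 1.695 at 0.25 h, below 1.715 at 1 h and 1.717 at 3 h, against 1.662 at 12 h. With 10 to 29 contacts the higher 12 h library, at 1.292, lay above the lowest of the other 6, at 1.286. In this run the fall of the excess over 1 from 0.25 to 12 h differed between classes. It was 25.7% with 1 to 9 contacts, 6.55% with 10 to 29, 4.77% with 30 to 99 and 12.8% with 100 or more. At 50 kb a centre bin pair also takes in the neighbours of the 20 kb spot.

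Depth, coverage and self-contacts moved with digestion time as well. Balanced signal within the same 20 kb bin was, at the median bin, 7.56% of a bin's total at 0.25 h, 6.92% at 1 h, 6.57% at 3 h, against 4.33% at 12 h. At the anchors of members with 100 or more contacts it was 7.37% ± 0.297 (SD, n = 2), 6.72% ± 0.0212, 6.35% ± 0.163 and 4.19% ± 0.0707. It fell most between 3 and 12 h, as the strength did, and the part of self-contacts, depth or coverage in the strength was not tested. In the local maxima below the factor of 2 with 100 or more contacts, the strength was 1.47 ± 0.0221 at 0.25 h and 1.39 ± 0.00184 at 12 h. Their excess over 1 fell by 16.3%, against 19.4% in the members with that many contacts, so these pairs fell too.

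**Figure D2:**
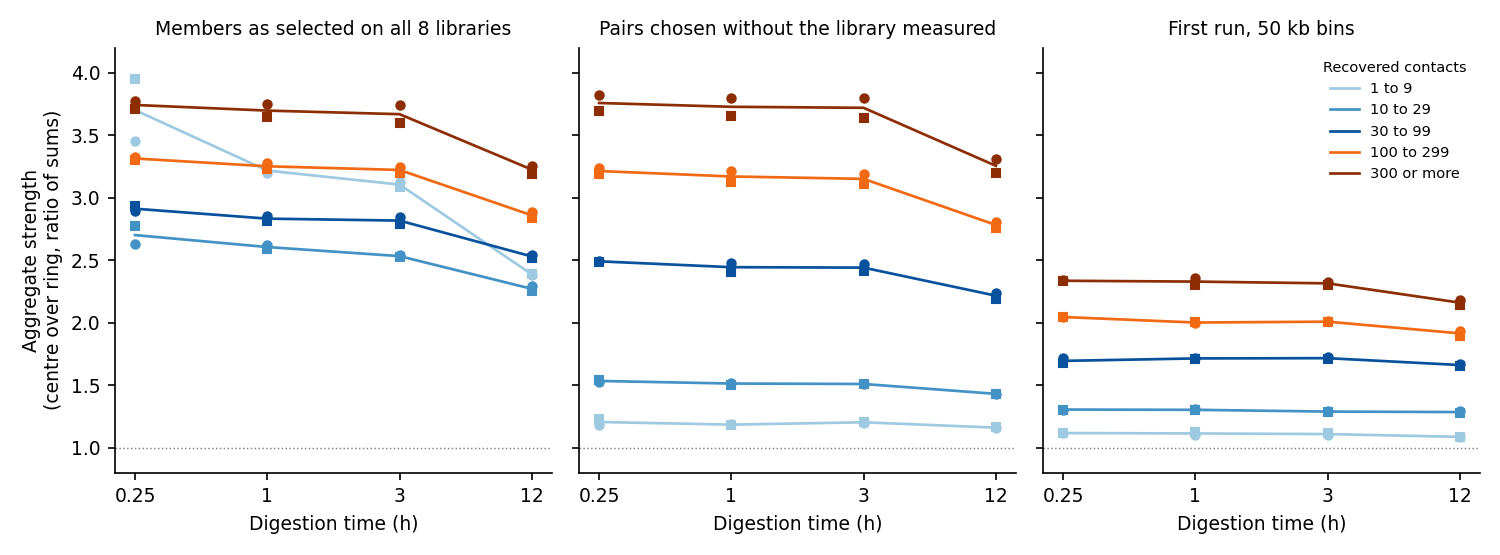
Aggregate strength (y axis, summed centre signal over the signal predicted by the rings) by digestion time (x axis, hours, evenly spaced). Circles are replicate 1, squares replicate 2, lines the mean of both, and colours the contact classes; the panels show members as selected on all 8 libraries, pairs chosen without the library measured, and the first run at 50 kb. In the members with 1 to 9 contacts the strength drops to 1.16 to 1.23 once the library is left out of the choice, and in the first 2 panels each class is lowest at 12 h.

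The middle of the spot moved and its surroundings moved little. Among members with 100 or more contacts whose surroundings fit in a window of 200 kb to each side (2181 pairs, 420 to 1800 kb apart), the centre was 6.12 ± 0.15 times the distance mean at 0.25 h (SD, n = 2). It was 5.86 ± 0.10 at 1 h, 5.77 ± 0.10 at 3 h and 5.02 ± 0.077 at 12 h. The corner toward the diagonal, inside the interval between the anchors, was 1.45 ± 0.0021 at 0.25 h and 1.48 ± 0.0099 at 12 h. The corner away from the diagonal was 1.22 ± 0.0092 and 1.24 ± 0.011. The corner upstream of both anchors was 1.232 ± 0.012 and 1.266 ± 0.0049, and that downstream of both 1.234 ± 0.00071 and 1.269 ± 0.011. The centre thus fell while these corners, which lie in the ring, rose by small amounts. The upstream and downstream corners rose by more than the spread between replicates. Centre and corners were measured in the libraries on which the members were chosen, so these levels are a description. A few very strong pairs weighed on this mean: without the 18 that had a strength of 10 or more, the centre of the other 2163 was 5.47 ± 0.054 at 0.25 h (SD, n = 2), 5.44 ± 0.18 at 1 h, 5.44 ± 0.10 at 3 h and 4.89 ± 0.078 at 12 h. In these the fall lay between 3 and 12 h, and the shorter times differed by less than the spread between replicates.

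The members with 100 or more contacts sat on stripes. Along the line of an anchor, toward the diagonal, the signal was 2.17 ± 0.011 times the distance mean at 0.25 h (SD, n = 2) and 2.16 ± 0.025 at 12 h. Outward it was 1.97 ± 0.023 and 1.96 ± 0.026. Those changes were within the spread between replicates. The inward stripe was above the outward stripe at each time, as the corner toward the diagonal was above the corner away from it. The outward stripe was in turn above both corners. These surroundings lie in the ring that the rule used, so the shape is a description.

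Members with under 30 contacts had the same order of surroundings, but far weaker. Over 39404 of them the corner toward the diagonal was 1.06 ± 0.0014 times the distance mean at 0.25 h (SD, n = 2) and 1.08 ± 0.0 at 12 h, and the corner away from it 1.025 ± 0.0042 and 1.04 ± 0.0021. The inward stripe was 1.20 ± 0.0071 and 1.19 ± 0.0, and the outward stripe 1.165 ± 0.0042 and 1.156 ± 0.0021. Their centre was 3.66 ± 0.26 at 0.25 h and 2.66 ± 0.018 at 12 h, in the libraries on which they were chosen. The left-out libraries gave far lower values, as strength over the ring. With 1 to 9 contacts it was 1.207 at 0.25 h and 1.161 at 12 h, and with 10 to 29 contacts 1.535 and 1.432.

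**Figure D3:**
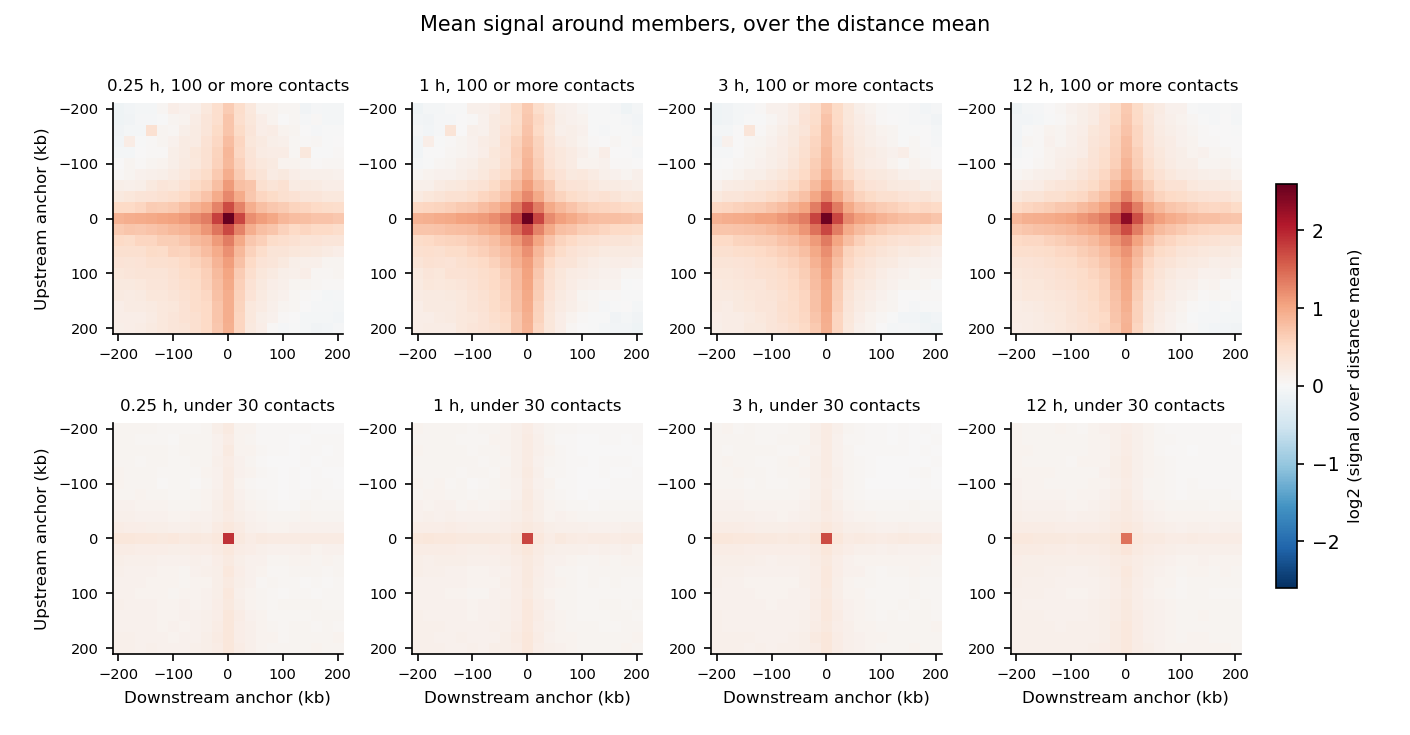
Mean balanced signal over the distance mean (colour, log2 scale) around members at each digestion time, mean of 2 libraries. Axes give the distance in kb from the upstream anchor (y) and the downstream anchor (x), and the lower left corner points to the diagonal; the upper panels average 2181 members with 100 or more contacts, with a centre of 6.12 at 0.25 h and 5.02 at 12 h, and the lower panels 39404 with under 30 contacts, with weaker surroundings.

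The fall was alike in the nearer distance classes and larger in the farthest. Members with 100 or more contacts that were 100 to under 400 kb apart (4093 pairs) had a strength of 3.39 ± 0.0366 at 0.25 h (SD, n = 2) and 2.94 ± 0.0421 at 12 h. Those 400 to under 1000 kb apart (1969 pairs) had 3.56 ± 0.0301 and 3.11 ± 0.0223. The 368 pairs 1 to 2 Mb apart had 4.88 and 5.62 in the 0.25 h libraries, 4.62 and 4.67 at 1 h, 4.51 and 4.37 at 3 h, against 3.60 and 3.53 at 12 h. The fall from 0.25 to 12 h was 13.3%, 12.7% and 32.1% in these distance classes. The farthest class rested on few pairs, since without its 11 members with a strength of 10 or more the other 357 had 3.83 and 3.89 in the 0.25 h libraries and 3.36 and 3.29 in those of 12 h, a fall of 13.9%. The difference between the classes was not tested.

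A small group had far higher strengths than the rest. Of the members with 100 or more contacts, 34 had a strength of 10 or more. Their summed strength was 22.1 and 27.0 in the 0.25 h libraries, 18.6 and 20.1 at 1 h, 16.6 and 17.3 at 3 h, against 10.02 and 9.35 at 12 h. No times overlapped, and each longer time was lower. These pairs were picked for a summed strength of 10 or more in the same libraries, so these values are a description. Of the 34, 10 were at 10 or more in both 12 h libraries and 15 in neither, so those 15 passed the limit through the shorter times. The first run gave 6.66 ± 0.71 at 0.25 h (SD, n = 2) and 3.89 ± 0.0624 at 12 h for 33 of them. The other 6396 members with 100 or more contacts gave 3.38 ± 0.0402 at 0.25 h and 2.96 ± 0.0367 at 12 h.

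The anchors of these 34 pairs lay in poorly covered bins. They used 66 bins, of which 66.7% were among the lowest 30% of all bins by recovered contacts, against 18% of the anchors of all members with 100 or more contacts. Within 5 bins of a bin absent from the maps lay 19.7% of them, against 11.1% of all present bins. Their signal per contact was 3.05 at the median, against 0.87 in the members with that many contacts and a strength under 10. Low coverage raises the factor by which balancing multiplies each contact, and its part in these strengths was not tested.

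The 15 strongest separate members with a summed signal of 100 or more had strengths of 30.8 to 95.3, were 300 to 2000 kb apart and had 13 to 215 contacts. Of these, 7 had under 100 contacts and 4 had under 30. An anchor lay within 5 bins of an absent bin in 8 of the 15. Whether reads map uniquely at the anchors of these or other named pairs was not examined. All 15 had a lower mean strength at 12 h than at 0.25 h. The same was not counted over all local maxima, so nothing is read from it. In the first run 13 of the 14 with a value were above the ring. These members were selected on their summed strength, so their levels are a description.

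The strongest joined chr17:20740001-20760000 and chr17:22040001-22060000, 1300 kb apart, on 137 contacts. Its strength was 206 and 245 in the 0.25 h libraries, 89.1 and 130 at 1 h, 58.7 and 93.2 at 3 h, against 30.2 and 53.2 at 12 h. The contacts themselves numbered 26 and 28 at 0.25 h, against 6 and 11 at 12 h, although the 12 h libraries were the deepest. In the first run its centre held 0 signal at 50 kb, which makes it the 1 exception among the 14. Both anchors lie across a border of 50 kb bins, and the centre took the bin on 1 side only. It thus covered only part of the 20 kb spot.

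The pair at chr5:177360001-177380000 and chr5:178940001-178960000 was the next strongest, with 208 contacts. Its strength was 79.4 and 197 at 0.25 h, 106 and 309 at 1 h, 121 and 82.0 at 3 h, against 38.4 and 33.1 at 12 h. The replicates differed by more than a factor of 2 at 0.25 and 1 h, and both 12 h libraries were the lowest. The pair at chr13:20120001-20140000 and chr13:21840001-21860000, with 204 contacts, ranged from 67.2 to 83.1 over the 6 libraries of the shorter times and was 37.2 and 52.2 at 12 h.

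The farthest member of the 15 by distance and strength joined chr3:195360001-195380000 and chr3:197360001-197380000, 2000 kb apart. It rested on 25 contacts, of which the 12 h libraries held 1 and 0. A pair on chromosome 13, from 19760001 to 21760001, was also 2000 kb apart, with a strength of 31.6 on 31 contacts. On chromosome 15 a pair from 100320001 to 102300001 was 1980 kb apart, with a strength of 27.3 on 58 contacts. At so few contacts the value of a single library is open to counting error.

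Whether single pairs changed was tested with limma on the log2 ratio of centre to ring-predicted signal, with a pseudocount of 1, over all 176673 local maxima. The log2 scale with a pseudocount understates the change of pairs with little signal. As planned, with limma's default variance trend on the mean log2 ratio, no member was called in any of the 3 comparisons, between 12 and 0.25 h, between 12 and 3 h or over log2 hours. The fits below used a variance trend on contacts, chosen after a first fit had been seen. At a Benjamini-Hochberg adjusted p of 0.05 no member was called between 12 and 0.25 h in either direction (0.0% of local maxima higher, 0.0% lower), while 3620 members (6.13%) had an unadjusted p under 0.05, against 5.44% of all local maxima. Between 12 and 3 h none was called either (0.0% higher and 0.0% lower), with 2029 (3.43%) under the unadjusted threshold, against 2.38% of all local maxima. The median log2 difference between 12 and 0.25 h was 0.04 over all members, 0.07 over all local maxima and -0.15 over members with 100 or more contacts. The median over all members is thus on the other side of 0 from the fall of the summed strength. The choice of libraries mattered: without 0.25 h replicate 1, 42 members were called, 37 higher and 5 lower at 12 h, and without any other library none was. These are 0.0626% and 0.00846% of the members, against 0.0549% and 0.00283% of all local maxima, so the share higher was near that of all. The lone 0.25 h library is assumed there to vary like the other times.

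For the slope over log2 hours 18 members were called with the variance trend on contacts, all falling, against 0.0102% of all local maxima called lower and 0.0% called higher. The unadjusted p was under 0.05 in 3315 members (5.61%), against 5.38% of all local maxima. The 18 were the only local maxima called, and 16 of them had 100 or more contacts. With the replicate number as a block, 16 members (0.0271%) were called, all falling, against 0.00906% of all local maxima. With the planned variance trend none was called, while 4995 members (8.45%) had an unadjusted p under 0.05, against 5.5% of all local maxima. None was called either with a variance trend on signal, or on recovered contacts with the centre thinned to equal depth. After thinning, the slopes of the 18 stayed within 1.5 times those reported. Without 1 library at a time the count was 10 and 0 without 0.25 h replicates 1 and 2, 10 and 12 without those at 1 h, 9 and 10 without those at 3 h, and 0 without either 12 h replicate. The falling slopes are what the 18 were selected for, so their levels are a description. Their slopes were smaller with a centre of 3 x 3 pairs, by more than 1.5 times in 13, and lay there between -0.37 and -0.05, against -0.56 to -0.25 as reported.

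A further fit, chosen after seeing the data, held only the 14576 local maxima with 100 or more contacts. It called 37 members lower at 12 h than at 0.25 h and none higher, against 0.268% of the pairs tested called lower, with 778 members (12.1%) at an unadjusted p under 0.05, against 8.57% of the pairs tested. It called 34 members for a falling trend, against 0.247% of the pairs tested. Counted without a model, both 12 h libraries were below the other 6 in 747 of the 6430 members (11.6%), against 7.35% of these local maxima, and above the other 6 in 47 (0.731%), against 1.37%. The factor of 2 that sets the members apart uses the sum of the same library values, so nothing is read from these shares.

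The lowest p for a trend belonged to chr13:25160001-25180000 and chr13:25520001-25540000, 360 kb apart, with 304 contacts. Its strength was 26.5 and 28.4 at 0.25 h, 17.3 and 24.5 at 1 h, 14.8 and 12.3 at 3 h, against 6.92 and 7.35 at 12 h. Its contacts fell from 62 and 43 at 0.25 h to 21 and 22 at 12 h. The slope was -0.35 ± 0.041 (SE) per doubling of the hours on the log2 scale (adjusted p = 0.00195, limma), and -0.15 with a 3 x 3 centre. The 12 h libraries were the lowest and the 0.25 h libraries the highest, with no overlap between them.

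A pair with a modest summed strength was called next. It joined chr15:24620001-24640000 and chr15:24800001-24820000, 180 kb apart, with 338 contacts and a strength of 2.27. Its strength was 4.51 and 5.59 at 0.25 h, 2.44 and 2.26 at 1 h, 1.74 and 2.54 at 3 h, against 1.17 and 1.13 at 12 h. At 12 h its strength was under 2 in both libraries, so the pair met the factor of 2 only through the shorter times, and its fall is no support for a change in the members. In 4 of the 18 at least 1 of the 12 h libraries was under 2. With a 3 x 3 centre the slope of the chromosome 15 pair was -0.09, against -0.35 as reported. This pair and chr22:25680001-25700000 with chr22:25980001-26000000 were the 2 falling members of lowest p between 12 and 0.25 h, both with an adjusted p of 0.0924 (limma), so neither was called there.

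The pair on chromosome 22 had 242 contacts. Its strength was 30.4 and 45.8 at 0.25 h, 14.4 and 18.1 at 1 h, 18.2 and 18.5 at 3 h, against 7.85 and 5.64 at 12 h. Both 12 h libraries lay below all others and both 0.25 h libraries above, and both 1 h libraries lay below both of 3 h. Its slope was -0.40 ± 0.055 (SE; adjusted p = 0.00736, limma), and -0.27 with a 3 x 3 centre.

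Chromosome 17 held 3 of the 18. They were the strongest member (above), the pair at chr17:14080001-14100000 and chr17:15460001-15480000, and the pair at chr17:21420001-21440000 and chr17:21940001-21960000. The pair from 14080001 had 22 and 31 contacts at 0.25 h and 2 and 5 at 12 h, with strengths of 140 and 173 against 8.99 and 29. The pair from 21420001 had a strength of 4.86 on 109 contacts, with 8.59 and 12.7 at 0.25 h and 1.68 and 1.86 at 12 h, so it too met the factor of 2 only through the shorter times. Of the 18, 7 had an anchor within 5 bins of an absent bin.

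The pair at chr7:29660001-29680000 and chr7:29780001-29800000 had the most contacts of the 18, 639, at 120 kb. Its slope was -0.25 ± 0.038 (SE; adjusted p = 0.019, limma), the flattest of the 18, and -0.05 with a 3 x 3 centre. The steepest was -0.56 ± 0.09, at the chromosome 17 pair from 14080001, with -0.28 for a 3 x 3 centre.

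In the rising direction the 2 members of lowest p between 12 and 0.25 h had no contacts at 0.25 h. The pair at chr10:105240001-105260000 and chr10:105340001-105360000 had 0 contacts in both 0.25 h libraries, 4 and 2 at 1 h, 6 and 2 at 3 h, against 10 and 13 at 12 h. The pair at chr17:10520001-10540000 and chr17:10740001-10760000 had 0 and 0, 3 and 2, 6 and 3, and 7 and 7. Their adjusted p values were 0.0924 and 0.113 (limma), so neither was called. A count of 0 at 0.25 h is at the floor of counting, and no fold is given.

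The strongest members under a strength of 10 with 300 or more contacts, 12 in number and chosen after their values were seen, held a narrower range. The pair with the most contacts was chr6:134240001-134260000 and chr6:134400001-134420000, 160 kb apart, with 1389. Its strength was 10.9 and 8.14 at 0.25 h, 9.86 and 9.85 at 1 h, 9.78 and 9.91 at 3 h, against 7.50 and 7.26 at 12 h. Both 12 h libraries were lowest, and the log2 difference from 0.25 h was -0.34 ± 0.14 (SE; adjusted p = 0.896, limma).

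At chr16:75820001-75840000 and chr16:77200001-77220000, 1380 kb apart, 412 contacts gave a strength of 11.2 and 8.25 at 0.25 h, 11.4 and 7.55 at 1 h, 7.97 and 6.75 at 3 h, against 9.12 and 9.84 at 12 h. The 12 h libraries lay among those of the other times. At chr21:35280001-35300000 and chr21:35720001-35740000 the strength was 8.20 and 7.84 at 0.25 h, 10.9 and 10.5 at 1 h, 8.87 and 11.4 at 3 h, against 7.94 and 7.96 at 12 h. All 12 had a lower mean at 12 h than at 0.25 h, with log2 differences in the fit from -0.61 to -0.003. The same was not counted over all local maxima, so nothing is read from it.

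**Figure D4:**
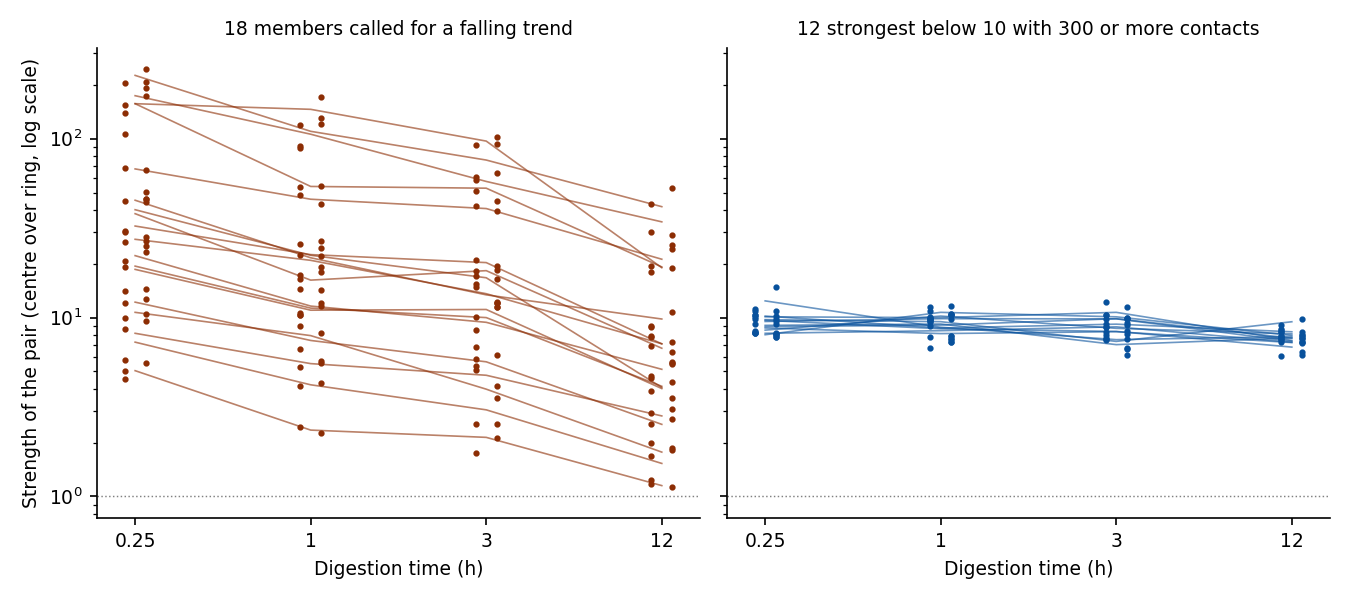
Strength of single members (y axis, centre over ring, log scale) by digestion time (x axis, hours, evenly spaced). Points are libraries, with replicate 1 to the left, and lines join the means of both; the left panel holds the 18 members called for a falling trend with a variance trend on contacts (none with the planned one), and the right panel the 12 strongest under a strength of 10 with 300 or more contacts. The 18 fall by several fold, as at the chromosome 13 pair from 26.5 and 28.4 to 6.92 and 7.35, while the 12 stay between 6.1 and 14.9.

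The anchors of well-covered members lay at domain boundaries more often than other bins. Boundaries were 4839 minima of an insulation score, the log2 of the contacts that cross a bin within 250 kb over their average, computed from the first run at 50 kb. Within 1 bin of a minimum were 28.1% of all present 20 kb bins, 31.9% of the anchors of members with under 30 contacts, 51.0% with 30 to 99 and 54.4% with 100 or more. With 300 or more contacts the share was 53.8%. Both runs read the same libraries, so insulation and focal contacts are not independent at the level of ligation products.

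Both anchors were near a minimum in 1982 of 6359 members with 100 or more contacts (31.2%). With under 30 contacts it was 11.6%. Among local maxima below the factor of 2, also with 100 or more contacts, this held in 325 of 8084 (4.0%). Taken whole, these and the members with 100 or more contacts differed in median distance, 200 against 300 kb, and in median contacts, 137 against 198. The rings that set the factor of 2 reach across both anchors, so the factor is not independent of insulation there. Nothing is read from the gap between these sets. The median insulation score was -0.25 at the anchors of members with 100 or more contacts and -0.02 over all bins. By library, at those anchors, it was -0.26 to -0.25 in the 6 of the shorter times and -0.24 and -0.23 at 12 h.

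**Figure D5:**
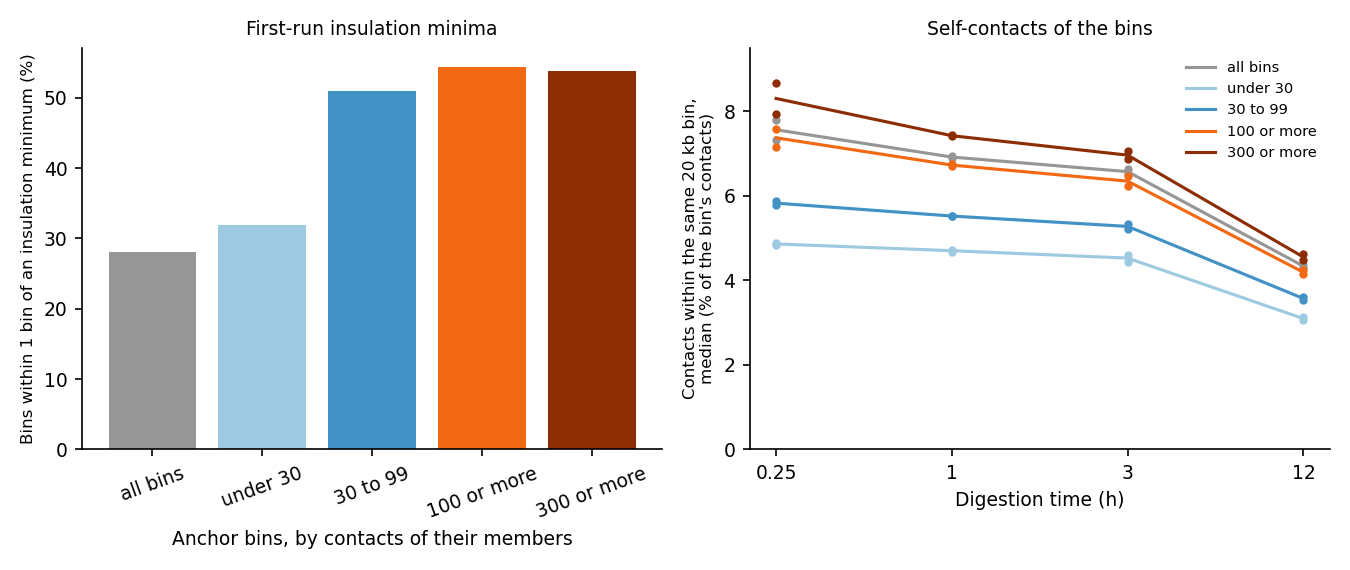
Left, share of 20 kb bins (%, y axis) within 1 bin of a first-run insulation minimum, for all present bins and for the anchors of members by contacts; 28.1% of all bins against 54.4% of the anchors of members with 100 or more contacts. Right, median signal within the same 20 kb bin (% of the bin's total, y axis) by digestion time (x axis, hours, evenly spaced), with points for libraries and lines for means; each set is lowest at 12 h, at 4.33% for all bins and 4.19% for anchors with 100 or more contacts.

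Anchors were shared. The 59088 members used 51127 bins, or 39.3% of those present, and 48.9% of these anchored 1 member only. The 6430 members with 100 or more contacts used 9014 bins (6.9%), and 69.7% of these anchored 1 such member. Among those well-covered members, an upstream and a downstream member met at an anchor shared to within 1 bin, with the outer anchors within 2 Mb, 2461 times. In 664 of these (27.0%) another such member joined the outer anchors, each to within 1 bin. No share for comparison was computed.

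The bins that anchored the most members did so on few contacts. At chr2:236160001-236180000, chr20:54880001-54900000 and chr22:26940001-26960000 lay 21 members each, with a median of 4, 5 and 2 contacts. At chr10:118480001-118500000 lay 20, with a median of 2.5, and 4 bins had 19, among them chr1:97300001-97320000 with a median of 7.

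Counted over members with 100 or more contacts, the most shared anchors held 7 members. At chr5:88020001-88040000 all 7 partners lay downstream, up to 1660 kb away, with a median of 293 contacts and strengths of 2.47 to 4.07. At chr6:20040001-20060000 all 7 lay upstream, up to 1520 kb away, with a median of 160 contacts. At chr2:175200001-175220000, 6 lay upstream and 1 downstream. Such one-sided sets of partners were also seen at chr8:102300001-102320000, with 7 upstream. These bins were picked after their values were seen.

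Coverage separated the members with few contacts from those with many, partly by construction, since the classes count contacts. Among the anchors of members with under 30 contacts 60.2% were in the lowest 30% of bins by contacts, and 6.7% in the highest 30%. With 300 or more contacts 5.0% were in the lowest 30% and 62.8% in the highest. The balanced value of a pair between poorly covered bins is thus high on few contacts.

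Coverage changed between 12 and 0.25 h in 57.8% of the anchors, near the 56.8% of all bins, tested with limma on the log2 share of contacts per bin over all bins. The anchors differed in direction. Of the 51127, 22053 were higher at 12 h than at 0.25 h and 7518 lower, that is 43.1% and 14.7%, against 35.5% and 21.2% of all bins (adjusted p under 0.05). At anchors of members with 100 or more contacts 31.1% were higher and 29.4% lower, and at those with 300 or more 21.2% were higher and 40.7% lower. With library sizes by median of ratios the split was 36.0% higher and 20.2% lower over all anchors, and 24.3% and 37.2% at the anchors with 100 or more contacts, where the direction turned, against 28.4% and 28.5% of all bins. On contacts between chromosomes only, 6.27% of the anchors were called, against 6.69% of all bins. The part of this shift in focal strength was not tested.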

How the data were processed

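Hi-C in K562 nuclei gave 16 deposited files, 8 libraries in each of 2 sequencing runs. Per the submitters' processing notes, the authors used HiC-Pro 2.11.1, Bowtie2 2.3.4.1 and hg19. The deposited values are a balanced signal per pair of bins, per the values in the files: each bin of a file has the same total. Bin numbers fit 50 kb bins (first run) and 20 kb bins (second run) over chromosomes 1 to 22, X, Y and M.

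Second-run signal was summed over the 8 libraries without scaling. Ring pairs had to be present in 80%. Whole contacts were recovered from the factor of each bin, with 100% of values within 0.01 of a whole number. Contacts amplified by PCR are not independent molecules. The members and lists were chosen with earlier results of these data known. Pairs were named by rank of strength, p, distance, nearness to the factor of 2 and number of members per anchor; other named pairs are marked as picked afterwards.

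Single pairs were fitted with limma 3.58.1 (R 4.3.3) on log2(centre + 1) minus log2(ring-predicted + 1), with the pseudocount scaled to each library, a mean per time or a slope on log2 hours, and a variance trend on contacts. That trend departs from the plan, which was limma's default trend on the mean log2 ratio. It was set to contacts after a first fit, with signal, had been run on the data and had made no correct call when tested on simulated data. With contacts small changes were still missed there and larger ones were then used in the test, so the fit of single pairs can miss small changes. Bin coverage used a prior of 0.5. The recovery of contacts was also tested on simulated data. Same-numbered replicates of different times correlated at -0.009 to 0.020 in their deviations from the time means, taken over pairs. A correlation removes the mean of each library, so it cannot show a shift common to a whole library. The median share of signal between chromosomes, over all present bins, was lower in replicate 1 than in replicate 2 at each time. It was 11.43% against 12.02% at 0.25 h and 11.87% against 12.15% at 1 h. At 3 h it was 11.84% against 12.28%, and at 12 h 12.64% against 12.87%. Whether the numbers pair the libraries was thus not settled. Other settings run were other rules, left-out libraries, a replicate block, other pseudocounts and other centres; fits on contacts, on thinned centres, on well-covered pairs and with other variance trends, and the contact classes, were added after seeing the data. Promoter and miRNA sequences of another build were not used.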

Additional observations from a re-analysis of the deposited data

Results flagged for a closer look

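Chromosome X was outside the rule, which covers autosomes. Under the same rule 4802 of its 12824 local maxima qualified (37.4%, against 33.4% on the autosomes), and 154 of these had 100 or more contacts. Contacts in data left out of the comparisons are what set this result apart, and it was not examined further.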

How the results depend on the processing

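The number of members stayed between 56195 and 75417 with other maxima, distance means, library scaling or 1 library left out (44571 to 49007 of the members were kept without 1 library, 45432 with scaling), and was 19170 with a factor of 3, 13361 with a summed signal of 100 or more and 15136 with 30 or more contacts. The fall in strength from 0.25 to 12 h, 0.671, was 0.278 with each library over pairs chosen without it (0.464 for those with 100 or more contacts), 0.0902 with a 3 x 3 centre, 0.408 on recovered contacts, 0.591 with a summed signal of 100 or more, 1.69 with members chosen on scaled libraries, 0.875 with under 30 contacts, 0.476 with 100 or more, and 0.584 to 0.758 without 1 library. The median over members reversed it, at -0.286; the median was 1.51 in 0.25 h replicate 2, where 46.5% of members had 0 contacts. In the first run it was 0.0569, 0.046 to 0.0678 without 1 library, and 0.146 with 100 or more contacts.

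Members called between 12 and 0.25 h, 0 as reported, numbered 11 with a 3 x 3 centre (all lower) or a pseudocount of 3 (2 higher, 9 lower), 7 with a summed signal of 100 or more (1 higher, 6 lower), 22 on recovered contacts (all lower), 45 after thinning (12 higher, 33 lower, 0 of them with 100 or more contacts), 37 with only pairs of 100 or more contacts (all lower), and 0 to 42 without 1 library. With the 3 x 3 centre these were 0.0186% of members, against 0.00623% of all local maxima. On recovered contacts it was 0.0372% against 0.0125%. After thinning 0.0203% were higher and 0.0558% lower, against 0.00792% and 0.0215%. With a pseudocount of 3 it was 0.00338% and 0.0152%, against 0.00113% and 0.00509%. With a summed signal of 100 or more it was 0.00748% and 0.0449%, against 0.00289% and 0.0174%. Between 12 and 3 h the count was 5 with only pairs of 100 or more contacts (0.0343% of the pairs tested) and 0 otherwise. Trend calls, 18, numbered 11 with a 3 x 3 centre, 53 on contacts (7 higher, 46 lower), 0 after thinning or with a variance trend on signal or on the mean log2 ratio, as planned, 34 with only pairs of 100 or more contacts, and 0 to 12 without 1 library. Trend calls with a 3 x 3 centre were 0.0186% of members, against 0.00623% of all local maxima. On contacts 0.0118% were higher and 0.0778% lower, against 0.0108% and 0.0272%, so the share higher was near that of all. The cause of these changes in the counts was not tested. With the replicate block the counts were 0, 0 and 16, the last being 0.0271% of members against 0.00906% of all local maxima. Whether libraries of the same number share more than that number was not settled. The block changed no other call beyond 1.5 times (anchor coverage 31729 against 29571 bins). Of the 18 called slopes, which were selected as falling in the same libraries, 13 were smaller by over 1.5 times with a 3 x 3 centre.

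Anchors near minima, 34.9%, were 24.9% with a 500 kb window and 14.1% in the same bin, against 19.5% and 9.6% of all bins. Coverage calls at anchors, 29571, fell to 3205 on contacts between chromosomes only, and were 21777 to 29341 without 1 library. Of the members, 75.6% had under 30 contacts in 8 libraries. The part of depth in the calls of single pairs was not tested.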

Other observations

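Chromosomes differed in how many members they carried per present bin. Counting all members, chromosome 22 had the most, at 69.8 per 100 bins, and chromosome 6 the fewest, at 34.6. Counting members with 100 or more contacts turned much of this around: chromosome 1 had the most, at 6.67 per 100 bins, and chromosome 19 the fewest, at 1.5, while chromosome 22 had 3.34. These counts carry no test, and chromosomes differ in coverage and in copy number in this line.

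The signal with gene-rich chromosomes, relative to that with gene-poor ones, was higher at anchors than in all bins. It was taken as the log2 ratio of balanced signal with chromosomes 19, 17 and 11 to that with chromosomes 13, 18 and 4. These have the most and the fewest protein-coding genes per Mb in a RefSeq table of a later assembly. The ratio was not corrected for the number of bins of these chromosomes, so its sign does not tell which set is contacted more per bin. Its median was -0.37 over 99737 bins. It was -0.27 over anchors of all members and -0.22 over anchors of members with 100 or more contacts, of which 61.5% were above the median of all bins. The quartiles overlapped widely, from -0.67 to 0.07 over all bins and from -0.52 to 0.15 over those last anchors, and no test was made.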
